A study of Mus musculus with 6 samples.

Results

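The collagen and laminin genes of mouse embryonic stem cells (mESCs) were described across 6 RNA-Seq libraries. The members were every gene whose symbol is Col followed by a number, the letter a and a number, or Lam followed by a, b or c and a number, whatever its level. This rule took 55 of the 39017 genes in the count tables, 44 of them collagen chains and 11 of them laminin chains.

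The study asked what the loss of each RNA polymerase does to chromatin folding, and its RNA-Seq followed the loss of Pol II, which makes mRNA. The libraries fall into 3 groups of 2. The untreated group and the auxin group are the same V6.5 mESCs, a line from a C57BL/6 × 129/sv cross, in which both copies of the gene of the largest Pol II subunit, RPB1, carry a mini-AID degron fused to GFP, and in which the plant protein OsTIR1 can be switched on from the Rosa26 locus by doxycycline. Both received 1 μg/ml doxycycline for 12 h, and only the auxin group then received 500 μM of the auxin indole-3-acetic acid for 6 h, which marks the tagged protein for destruction. The tagged line was grown from selected colonies, so that it stands for one selected line rather than for mESCs at large. The wild-type group is V6.5 mESCs with untagged Pol II. No source used here says whether it received doxycycline or auxin. Auxin removes a protein and not an mRNA, so the counts do not measure the depletion itself. All cells were grown on irradiated mouse embryonic fibroblasts, a feeder layer that secretes collagen, before passage for the experiments.

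Collagens are secreted proteins of 3 chains wound into a triple helix, in which glycine must stand at every step of a repeating triplet so that the chains can pack. Fibrillar collagens build the rope-like fibrils of skin, bone and cartilage, while type IV collagen and the laminins build the basement membrane, the sheet on which epithelial cells rest. A laminin is a cross of an alpha, a beta and a gamma chain, and in the early mouse embryo the laminin of Lama1, Lamb1 and Lamc1 together with the type IV chains Col4a1 and Col4a2 makes the first basement membranes.

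The triplet repeat can be read in the genes. Of 2000 coding exons in the principal transcripts of the 44 collagen genes, 469 were exactly 54 bases long, which is 23.45%, a length with room for 6 steps of 9 bases. The share was 0.445% over 191881 coding exons of 21171 other protein-coding genes, and none of the 486 coding exons of the laminin genes had this length. Among those 469 collagen exons, 453 (96.6%) held a glycine codon (GGN) at each step of 9 bases, against 5 of the 854 exons of this length in other genes. The fibrillar genes had between 41.2% (Col1a1) and 55.0% (Col24a1) of their coding exons at this length, whereas the 6 type IV genes had between 2.1% (Col4a2) and 5.7% (Col4a5). The range was not particular to fibrillar genes. Among the fibril-associated genes, Col22a1 (44.4%), Col9a2 (43.8%) and Col9a3 (43.8%) lay within it, while Col12a1 had 6.2% of its coding exons at this length. The exon shown is the first of this length that starts on a whole codon and has a full set of glycine codons. It is given for the 5 collagens called higher after auxin in the test described below, and for Col4a1 as a network chain. The letters were taken from the GENCODE vM21 transcripts (GRCm38), read 5′ to 3′, and capitals mark the glycine codons.
Col1a2 exon 8, chr6:4515481-4515534, plus strand: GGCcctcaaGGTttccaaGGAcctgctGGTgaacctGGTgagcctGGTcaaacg
Col2a1 exon 6, chr15:97998545-97998598, minus strand: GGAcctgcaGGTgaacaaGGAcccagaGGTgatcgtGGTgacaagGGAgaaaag
Col5a1 exon 15, chr2:27965251-27965304, plus strand: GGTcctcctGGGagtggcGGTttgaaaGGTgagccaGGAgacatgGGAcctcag
Col11a2 exon 15, chr17:34051480-34051533, plus strand: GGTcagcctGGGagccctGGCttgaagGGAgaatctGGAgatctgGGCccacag
Col7a1 exon 48, chr9:108967172-108967225, plus strand: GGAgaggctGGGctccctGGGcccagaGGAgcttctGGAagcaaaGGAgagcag
Col4a1 exon 7, chr8:11245211-11245264, minus strand: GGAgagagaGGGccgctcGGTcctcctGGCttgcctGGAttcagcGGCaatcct
In each of the 6 genes the exon opened on a glycine codon, and the letters between these codons differed from chain to chain.

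**Figure D1:**
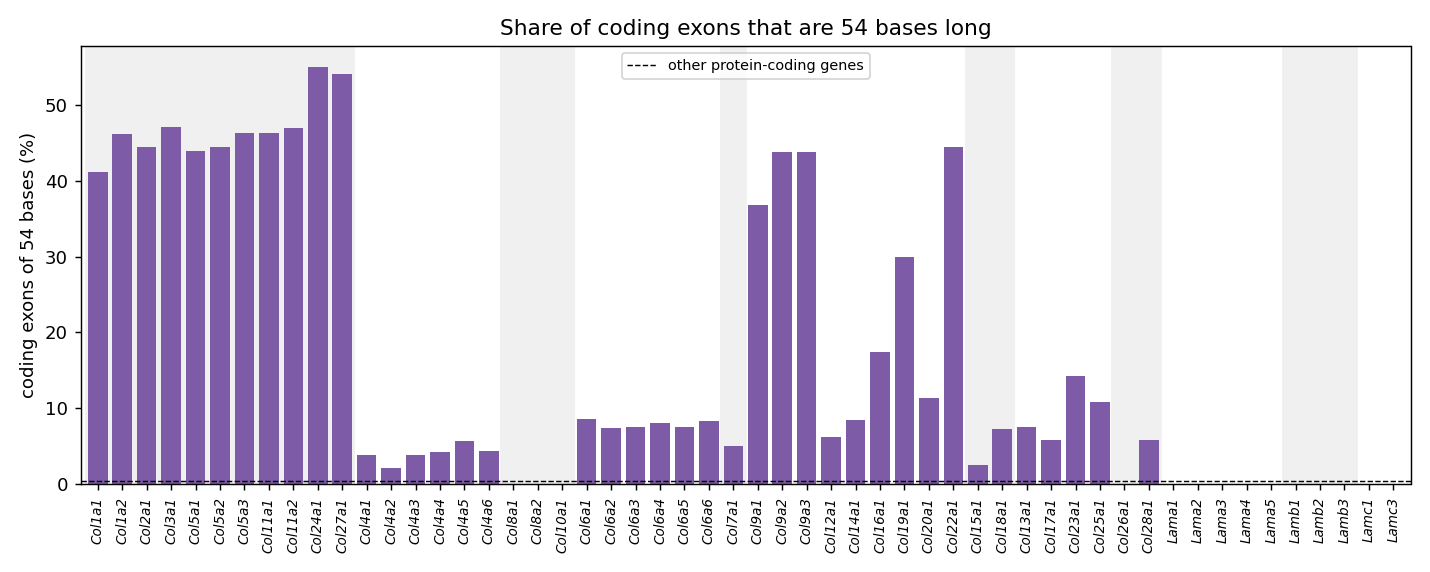
Share of coding exons that are 54 bases long (percent, vertical axis) in the principal transcript of 54 of the genes (horizontal axis, shaded by class), with a dashed line at the 0.445% of other protein-coding genes. The fibrillar collagens stand between 41.2% and 55.0%, and the laminins at the far right have no exon of this length.

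The RefSeq promoter table (GRCm38.p6) held 44 windows for 40 of the 55 genes. In the 250 bases before the start, the letters GGGCGG, on either strand, were found in 24 of the 44 windows (54.5%) against 32.7% of all 32851 windows. CCAAT was found in 31.8% against 33.8%, and TATAAA in 11.4% against 12.4%, again on either strand, and none of the 3 motifs is contained in another. A match is a stretch of letters and not a binding site. The upstream bases are shown for 3 collagens called higher after auxin and for Lama2. Lama2 was the member with the largest difference between wild type and tagged cells. In each case no annotated exon lies over the bases shown. Capitals mark any of the 3 motifs on either strand.
Col5a1 upstream bases, chr2:27886175-27886424, plus strand: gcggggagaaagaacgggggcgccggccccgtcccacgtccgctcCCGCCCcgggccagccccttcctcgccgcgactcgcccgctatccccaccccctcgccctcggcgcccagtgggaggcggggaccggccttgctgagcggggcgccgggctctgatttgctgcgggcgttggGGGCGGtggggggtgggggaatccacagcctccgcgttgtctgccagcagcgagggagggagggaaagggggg
Col7a1 upstream bases, chr9:108953336-108953585, plus strand: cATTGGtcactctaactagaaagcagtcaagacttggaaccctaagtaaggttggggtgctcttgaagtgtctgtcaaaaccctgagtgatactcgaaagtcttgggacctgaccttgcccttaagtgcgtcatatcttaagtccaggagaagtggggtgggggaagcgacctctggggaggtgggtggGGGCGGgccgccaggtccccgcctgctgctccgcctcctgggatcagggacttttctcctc
Col11a2 upstream bases, chr17:34038888-34039137, plus strand: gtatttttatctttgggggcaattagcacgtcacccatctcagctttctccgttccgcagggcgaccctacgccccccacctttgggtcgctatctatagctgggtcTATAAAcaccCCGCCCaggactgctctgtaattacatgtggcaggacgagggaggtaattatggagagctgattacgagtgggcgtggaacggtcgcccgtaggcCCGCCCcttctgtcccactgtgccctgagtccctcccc
Lama2 upstream bases, chr10:27616943-27617192, minus strand: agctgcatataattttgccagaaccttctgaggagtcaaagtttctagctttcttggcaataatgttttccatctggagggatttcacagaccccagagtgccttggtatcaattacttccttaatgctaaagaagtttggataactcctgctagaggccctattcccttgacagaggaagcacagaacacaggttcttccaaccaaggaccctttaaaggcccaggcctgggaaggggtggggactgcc
Col5a1, Col7a1 and Col11a2 each held GGGCGG on at least one strand, Col7a1 also held CCAAT on the reverse strand, Col11a2 also held TATAAA, and the Lama2 window held none of the 3 motifs. The Lama2 window had no CpG and the Col5a1 window had 28, with a median of 6 over all windows and 8.5 over those of the members. This RefSeq start of Lama2 lies 2816 bases inside the gene as GENCODE draws it.

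Total counts lay between 14094022 and 15358714 per library, and the collagen and laminin genes took between 0.275% (untreated replicate 2) and 0.363% (auxin replicate 2) of them. Within the untreated group this share was 0.321% in replicate 1, so the 2 untreated libraries differed in it by more than the 2 auxin libraries (0.344% and 0.363%) or the 2 wild-type libraries (0.327% and 0.328%). Between 52 and 55 of the 55 genes had a count in each library, and the 5 most counted members held between 63% and 68.8% of the members' counts. The study's methods call the replicates of its high-throughput experiments biological, but the labels do not say whether these libraries came from separate cultures, so p-values measure the spread between these libraries, which may be technical. The defining pluripotency gene Pou5f1 had between 10625 and 13854 counts in every library. The RNA extraction text of the wild-type libraries names retinas, but the photoreceptor genes Crx and Rcvrn were at 0 counts in all 6 libraries. The retina list, 10 genes, had a summed level of 8.94 and 8.58 CPM in wild type against 6.13 and 5.91 CPM in untreated cells. Its 2 genes tested in that comparison were both called higher in wild type, where 29.9% of all genes tested were. The 2 were Rlbp1, with 93 and 91 counts against 62 and 50 (adjusted p = 0.0102), and Prph2, with 21 and 11 against 5 and 8 (adjusted p = 0.042). The part of such cells in the member values was not tested.

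Levels between genes were compared as counts per 1000000 counts after TMM scaling (CPM), per kb of annotated exon. On this scale the gene order was led by basement membrane genes. In untreated cells Lamc1, the gamma chain of most laminins, stood at 68.7 ± 1.57 CPM per kb (SD, n = 2). Lama5, the alpha chain of later basement membranes, followed at 45.3 ± 5.25 CPM per kb. Col4a2 stood at 39.8 ± 11.2, Col18a1, the source of endostatin, at 38.2 ± 3.98 and Col4a1 at 36.5 ± 9.76 CPM per kb, and the order of these 4 genes after Lamc1 did not exceed the spread between the untreated libraries. Lamb1, the classical beta chain, came next at 24.4 ± 0.443 CPM per kb. Lamb2, Col5a1, Col9a2, Lama1 and Col1a1 then lay between 12.9 and 9.91 CPM per kb, close together. Col1a2, the partner of Col1a1 in type I collagen, stood at 5.41 ± 0.22 CPM per kb, and Col7a1, the anchoring fibril chain, at 4.23 ± 0.57.

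The 17 members with a mean under 100 counts in all 3 groups that passed no test were Col3a1, Col4a3, Col4a4, Col6a2, Col6a4, Col6a5, Col6a6, Col9a1, Col10a1, Col14a1, Col15a1, Col19a1, Col23a1, Col24a1, Col25a1, Col28a1 and Lamc3, with between 0 and 87 counts in any library. Col3a1, the fibrillar collagen that accompanies type I in fibroblasts, had 36 and 56 counts in untreated cells, 59 and 60 after auxin and 54 and 63 in wild type. Of the 55 members, 10 passed the filter on low counts in neither comparison, and none of these exceeded 17 counts in a library.

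**Figure D2:**
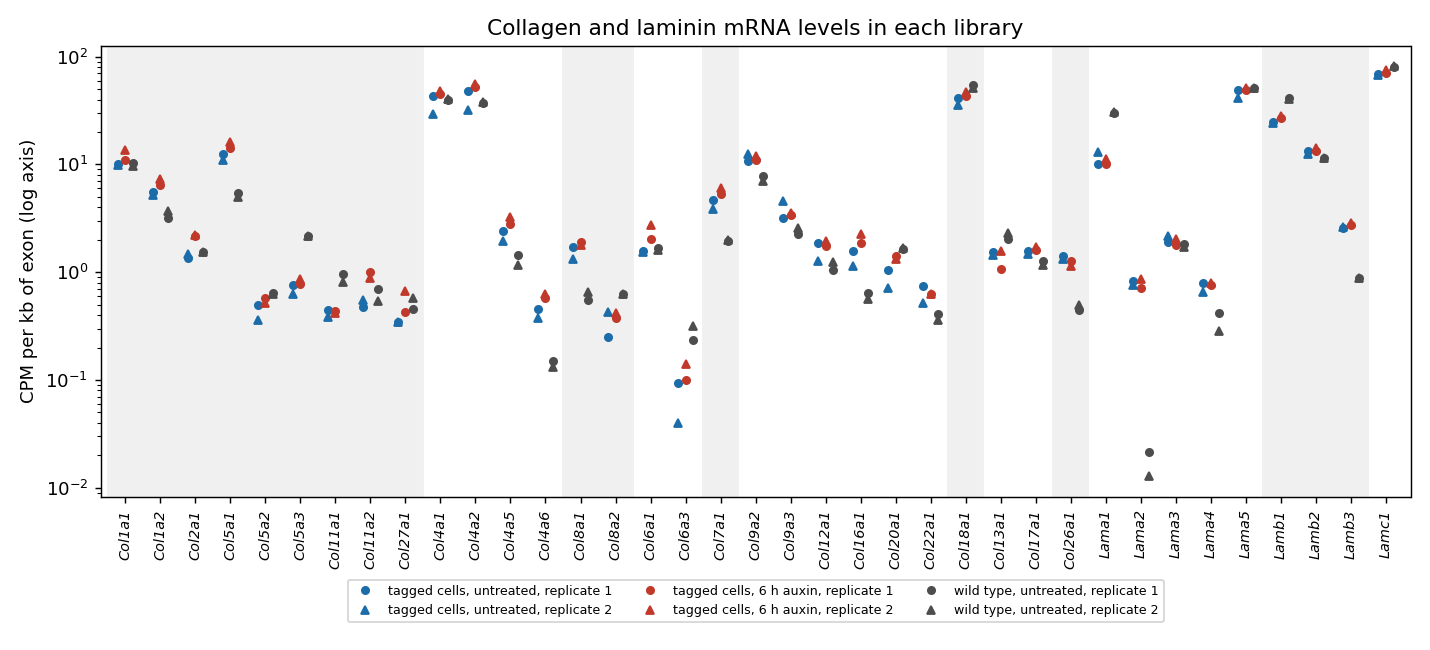
Level of 37 members with a mean of at least 100 counts in a group or with a called difference (horizontal axis, shaded by class) as CPM per kb of exon (vertical log axis), one point per library. Lamc1 stands highest in each group, Lama5, Col4a1, Col4a2, Col18a1 and Lamb1 follow, and the wild-type points of Lama2 stand far below those of the tagged cells. The legend calls the wild-type group untreated, though its treatment is not stated.

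The comparison of auxin-treated with untreated tagged cells asks which mRNAs changed in share within 6 h of Pol II loss. The mRNAs of 5 collagens made up a larger share of the counted mRNA after auxin, and no laminin passed the test. The 4 fibrillar chains Col2a1, Col11a2, Col5a1 and Col1a2 and the anchoring fibril chain Col7a1 were called higher at an adjusted p under 0.05 by edgeR's quasi-likelihood test, with folds between 1.29 and 1.87. No member was called lower. The filter on low counts passed 45 of the 55 genes, and the 5 called higher are 11.1% of these, against 2.56% of the 16128 genes tested. For the count of 0 lower the background is 1.64%. At an unadjusted p under 0.05, 19 of the 45 were higher and 0 were lower in edgeR, where 10.7% and 9.38% of all genes tested were. DESeq2, fitted without the edgeR filter on low counts, called 1 member higher (Col5a1) and 0 lower at an adjusted p under 0.05, beside the 5 and 0 of edgeR. RNA-Seq of this kind measures shares: a higher share does not say that a cell held more of the mRNA, and fewer cells of a type and less RNA per cell cannot be told apart.

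Col2a1, the cartilage fibril chain, had 180 and 196 counts in untreated cells and 318 and 316 after auxin. Both auxin libraries lay above both untreated libraries, with little spread within a group. Its log2 fold change was 0.65 ± 0.11 (SE) at an adjusted p of 0.00831. Col11a2, which joins Col2a1 in cartilage fibrils, had 47 and 55 counts and then 110 and 95. This was the largest change among the called members, from the lowest level among them. Its log2 fold change was 0.90 ± 0.20 at an adjusted p of 0.0284.

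Col5a1, a chain that starts type I fibrils, had 1536 and 1348 counts in untreated cells and 1940 and 2135 after auxin. The groups did not overlap after scaling. Its log2 fold change was 0.40 ± 0.08 at an adjusted p of 0.02. Reads of Col5a1 may include those of 2810430I11Rik and Gm13372, which lie over its exons on the other strand, since no source used here states the strand setting of the counting. Col1a2 had 993 and 951 counts and then 1275 and 1413, a log2 fold change of 0.36 ± 0.08 at an adjusted p of 0.0224. Its partner Col1a1 had 941 and 938 counts and then 1166 and 1380, a log2 fold change of 0.34 ± 0.09 at an adjusted p of 0.0506, just outside the threshold. Counts of Col1a2 per count of Col1a1 were 1.06 and 1.01 in untreated cells and 1.09 and 1.02 after auxin, so that the pair kept its ratio within the spread. Col7a1 had 684 and 573 counts and then 872 and 970, a log2 fold change of 0.45 ± 0.10 at an adjusted p of 0.0246.

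The other fibrillar chains pointed the same way without passing the test. Col27a1 had 65 and 66 counts and then 88 and 134, with a log2 fold change of 0.66 ± 0.23 and an adjusted p of 0.126. Col5a2 (0.38 ± 0.22), Col5a3 (0.25 ± 0.20) and Col11a1 (0.06 ± 0.19) had log2 fold changes whose adjusted p lay between 0.371 and 0.911. All 10 fibrillar chains tested had a positive estimate, beside 8052 of all 16128 genes tested, and their median log2 fold change was 0.37. Of these chains, 4 were called higher, beside 2.56% of all genes tested.

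The type IV chains had positive estimates that did not pass. Col4a1 had 4649 and 3216 counts in untreated cells and 5398 and 5521 after auxin. Col4a2 had 4536 and 3074 counts and then 5504 and 5745. For both genes the untreated libraries differed from each other by far more than the auxin libraries did. The log2 fold change was 0.37 ± 0.13 for Col4a1 (adjusted p = 0.123) and 0.46 ± 0.13 for Col4a2 (adjusted p = 0.0717). The 2 genes lie head to head on chromosome 8, Col4a1 at chr8:11198423-11312826 on the minus strand and Col4a2 at chr8:11312805-11449287 on the plus strand, so that their first exons overlap by 22 bases. The counts of Col4a2 per count of Col4a1 were 0.976 and 0.956 in untreated cells and 1.02 and 1.04 after auxin. The ratio varied far less between the untreated libraries than either count did, and it did not overlap between the 2 groups. Col4a5 and Col4a6, a second head-to-head pair 1308 bases apart on chromosome X, had log2 fold changes of 0.50 ± 0.13 (adjusted p = 0.0513) and 0.55 ± 0.22 (adjusted p = 0.181). Col4a5 had 233 and 189 counts and then 302 and 339, and Col4a6 had 52 and 44 and then 73 and 78. The third such pair, Col4a3 and Col4a4, separated by 71 bases on chromosome 1, was close to silent, with at most 11 counts in a library.

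Col18a1 had 4135 and 3619 counts in untreated cells, 4805 and 5095 after auxin, and an estimate of 0.25 ± 0.08 in log2 (adjusted p = 0.106). Col6a1, a beaded-filament chain, had 98 and 98 counts and then 141 and 187, at 0.64 ± 0.18 (adjusted p = 0.0648). Col16a1, a fibril-associated chain, had 153 and 113 counts and then 202 and 236, at 0.62 ± 0.17 (adjusted p = 0.0591). Each of the 3 was higher in both auxin libraries, as were 64.4% of the members tested and 25% of all genes tested. None of the 3 passed the test over all genes. Col6a3 (0.86 ± 0.43), Col20a1 (0.65 ± 0.21), Col8a1 (0.30 ± 0.14), Col12a1 (0.26 ± 0.14), Col8a2 (0.24 ± 0.34), Col17a1 (0.15 ± 0.15) and Col22a1 (0.03 ± 0.21) had positive log2 fold changes with adjusted p between 0.105 and 0.959. Col9a2 (-0.01 ± 0.10), Col13a1 (-0.15 ± 0.21), Col9a3 (-0.16 ± 0.16) and Col26a1 (-0.16 ± 0.14) had negative ones with adjusted p between 0.586 and 0.976.

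No laminin chain was called after auxin, and the log2 fold changes of the 11 chains had a median of 0.11. Lamb1 had 3517 and 3477 counts and then 4310 and 4361, at 0.21 ± 0.07 (adjusted p = 0.102). Lamc1 stood at 0.10 ± 0.07, Lama5 at 0.17 ± 0.08, Lamb2 at 0.10 ± 0.07, Lamb3 at 0.14 ± 0.11, Lama4 at 0.11 ± 0.16, Lama2 at 0.01 ± 0.14 and Lama3 at -0.09 ± 0.11 on the same log2 scale. Lama1 had 1408 and 1836 counts and then 1546 and 1676, at -0.11 ± 0.10 (adjusted p = 0.593), and its groups overlapped. Of the estimates, called or not, 30 of 34 in collagens and 9 of 11 in laminins were positive, beside 8052 of all 16128 genes tested. The difference between collagens and laminins was not tested.

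Over the 45 members tested the median log2 fold change was 0.25, against 0.00 over all 16128 genes. The 27 members that reached a mean of 100 counts had a median of 0.24, and the 10999 genes at that level had -0.02. The 2 auxin libraries lay above both untreated libraries for 29 of the 45 members (64.4%), where 25% of all genes did, and below both for 1 member, Col26a1, where 24.8% of all genes did. The members share libraries, so that a shift of a single library moves many of them. Untreated replicate 2 was lower than replicate 1 over the 26 members with at least 100 counts in that group, by a median of -0.12 in log2, with the largest gap at Col4a2 (-0.58), while the median over all genes at that level was 0.01.

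Which library was kept decided the number of calls. Without untreated replicate 1 there were 19 members called higher and 2 called lower (Col9a3 and Lama1), without untreated replicate 2 there were 9 and 0, and without auxin replicate 2 there were 0 and 0. Col2a1 and Col11a2 also lost their calls without auxin replicate 1. The 5 called genes lost their calls when counts were scaled to the mRNAs of mitochondria, which Pol II does not make. That scaling put the median of all genes at -0.17 and the median of the members at 0.07.

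**Figure D3:**
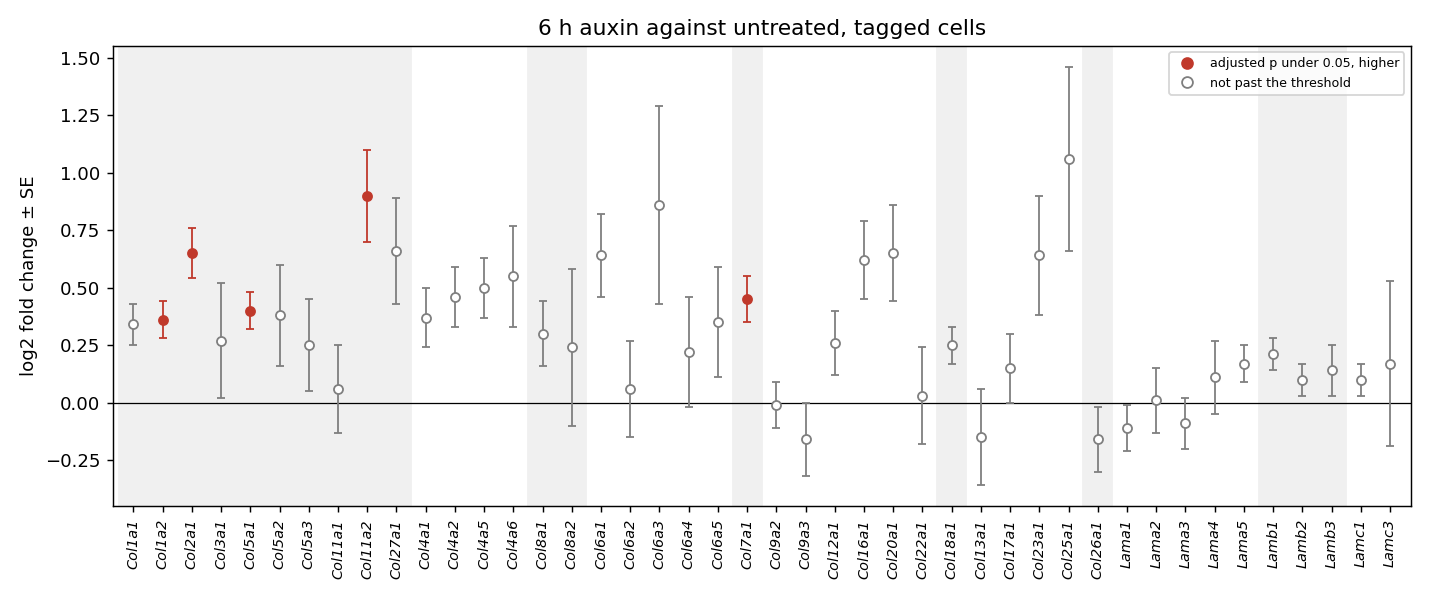
Log2 fold change of auxin over untreated libraries (vertical axis) for 44 of the members tested (horizontal axis, shaded by class), with bars of 1 SE from edgeR on 2 against 2 libraries. Filled red points mark the 5 members at an adjusted p under 0.05, and 38 of the 44 points lie above 0, as do 8052 of all 16128 genes tested.

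Over all genes tested, 2.56% were called higher after auxin and 1.64% lower. Among the 27 genes that fold, modify, cut and cross-link collagen, 2 were called higher and none lower. Both act on the ends of fibrillar procollagen. Bmp1, the protease that trims the procollagen C-terminus, had 1663 and 1275 counts and then 2043 and 2151, a log2 fold change of 0.41 ± 0.10 (adjusted p = 0.0448). Pcolce, which enhances that cleavage, had 1138 and 1208 counts and then 1493 and 1549, at 0.27 ± 0.07 (adjusted p = 0.0474). None of the 13 basement membrane partners tested, the 15 receptors or the 11 matrix-degrading enzymes and inhibitors passed, where edgeR gave 6, 5 and 6 genes at an unadjusted p under 0.05, 1 of them lower, beside the 10.7% higher and 9.38% lower of all genes tested. The fibroblast marker list, 10 genes, had a summed level of 43.5 and 44.2 CPM in untreated cells and 42.1 and 44.7 CPM after auxin. Its genes Dcn, Lum and Fap had at most 4 counts in any of these 4 libraries, but other genes of the list were counted. Pdgfrb had 287 and 284 counts in untreated cells and 283 and 297 after auxin. Thy1 had 171 and 210 and then 181 and 180, and Twist2 had 48 and 55 and then 63 and 77. None of the 6 fibroblast markers tested was called. The summed level of the 11 endoderm markers was 36.2 and 36.6 CPM and then 38.5 and 40.4 CPM. Of the 10 pluripotency genes, 4 (Sox2, Nanog, Esrrb and Zfp42) were called lower after auxin, beside 1.64% of all genes tested. Their log2 fold changes lay between -0.54 and -0.78, and their part in the collagen values was not tested.

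The comparison of wild-type with untreated tagged cells gives the levels of these genes without the tag. It uses the same untreated libraries as the auxin comparison, so that a chance deviation of an untreated library enters both. Tag, OsTIR1, clone, doxycycline, any auxin and any difference in preparation cannot be told apart here. No source used here says whether the wild-type and tagged libraries were prepared together. Of the 44 members tested, edgeR called 12 higher in wild type (27.3%) and 17 lower (38.6%), against 29.9% higher and 30.7% lower over the 15778 genes tested. Calls among the members were thus about as frequent as the background. The median log2 difference was -0.05 over the members and -0.01 over all genes. Within the laminins, Lama1, Lamb1 and Lamc1, the chains of the laminin of early embryos, were called higher in wild type. They are 3 of the 11 laminins tested, beside the 29.9% of all genes tested that were called higher. Lama2, Lama4, Lamb2 and Lamb3 were called lower. Scaling to the mitochondrial mRNAs put the median of all genes at -2.10 and called 0 members higher and 43 lower, so the directions given here are relative to the other mRNAs. Leaving out wild-type replicate 2 left 7 members called higher and 15 called lower.

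Lama1 had 1408 and 1836 counts in untreated tagged cells and 4090 and 4231 in wild type. The lowest wild-type library exceeded the highest tagged library by a wide margin. The log2 difference was 1.37 ± 0.10 (adjusted p = 3.96e-07), a fold of 2.59. Lamb1 had 3517 and 3477 counts and then 5800 and 5815, at 0.74 ± 0.06 (adjusted p = 8.34e-07). Lamc1 had 8290 and 8142 counts and then 9510 and 9625, at 0.23 ± 0.06 (adjusted p = 0.00519), the smallest difference of the chains called higher. Per kb of exon, Lama1 stood at 0.145 and 0.193 of the Lamc1 level in untreated cells and at 0.367 and 0.376 in wild type. Lamb1 stood at 0.354 and 0.356 of the Lamc1 level in untreated cells and at 0.509 and 0.504 in wild type.

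Lama2, the alpha chain of muscle basement membrane, had 195 and 181 counts in untreated tagged cells, 187 and 219 after auxin, and 5 and 3 in wild type. Its log2 difference was -5.50 ± 0.29 (adjusted p = 5.53e-08), the largest of any member. It was called under each alternative that gave it a value. The gene lies at chr10:26980036-27619758 on the minus strand. The antisense gene Gm48084 lies over its exons and shares 2.66% of its stretches of 100 bases. Lamb3, the beta chain of epithelial laminin, had 244 and 251 counts and then 83 and 84 in wild type, at -1.56 ± 0.14 (adjusted p = 3.23e-06). Lama3, the alpha chain of the same laminin, had 294 and 342 counts and then 280 and 262, at -0.22 ± 0.11 (adjusted p = 0.102), and did not pass.

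Lama4, a chain of blood vessel laminin, had 138 and 115 counts and then 72 and 49, at -1.05 ± 0.22 (adjusted p = 0.00157). Lamb2, the beta chain of the neuromuscular junction and kidney filter, had 1157 and 1117 counts and then 982 and 993, at -0.19 ± 0.07 (adjusted p = 0.0281). Lama5 had 8016 and 6900 counts and then 8214 and 8422, at 0.17 ± 0.08 (adjusted p = 0.0762), so that the most counted alpha chain did not pass the test.

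**Figure D4:**
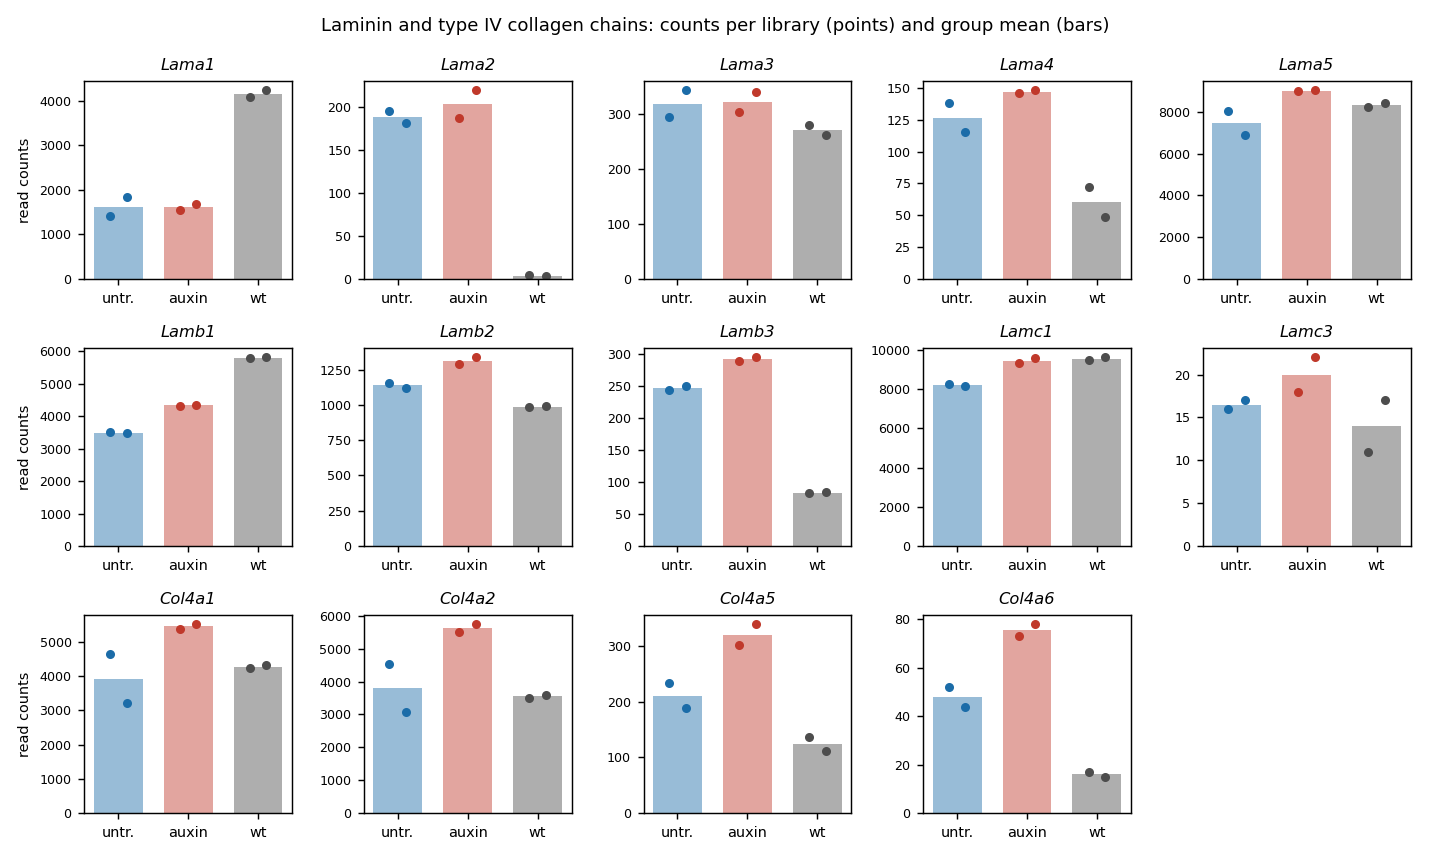
Read counts (vertical axes, each from 0) of 10 laminin chains and 4 type IV collagen chains in untreated tagged cells, tagged cells after 6 h auxin and wild-type cells, with points for the 2 libraries of a group and bars for their mean. Lama1 and Lamb1 stand higher in wild type, Lama2 falls from 195 and 181 counts to 5 and 3, and the untreated points of Col4a1 and Col4a2 lie far apart.

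The major type IV chains did not pass. Col4a1 had 4244 and 4320 counts in wild type, a log2 difference of 0.13 ± 0.13 (adjusted p = 0.396), and Col4a2 had 3514 and 3594, at -0.09 ± 0.13 (adjusted p = 0.585). Their direction turned with the untreated library that was kept. Without untreated replicate 1 both were called higher in wild type, Col4a1 at 0.43 (adjusted p = 3.07e-06) and Col4a2 at 0.23 (adjusted p = 0.00085). Without untreated replicate 2 both were called lower, Col4a1 at -0.12 (adjusted p = 0.0193) and Col4a2 at -0.35 (adjusted p = 1.44e-05). Between the libraries of a group the ratio was steadier, at 0.828 and 0.832 counts of Col4a2 per count of Col4a1 in wild type. It was 0.976 and 0.956 in untreated cells, so that the ratio did not overlap between these groups. Col4a5 had 137 and 112 counts in wild type, at -0.75 ± 0.17 (adjusted p = 0.0022), and Col4a6 had 17 and 15, at -1.57 ± 0.30 (adjusted p = 0.000856). Col4a6 per count of Col4a5 was 0.124 and 0.134 in wild type and 0.223 and 0.233 in untreated cells. Col18a1 had 5444 and 5177 counts in wild type, at 0.46 ± 0.07 (adjusted p = 0.000235).

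The fibrillar chains divided. Col1a1 had 962 and 915 counts in wild type against 941 and 938 in untreated tagged cells, a log2 difference of 0.01 ± 0.07 (adjusted p = 0.918). Its partner Col1a2 had 567 and 652 counts in wild type, at -0.66 ± 0.08 (adjusted p = 2.85e-05). Counts of Col1a2 per count of Col1a1 were 0.589 and 0.713 in wild type and 1.06 and 1.01 in untreated cells, so that the ratio did not overlap. Col5a1 had 649 and 613 counts in wild type, at -1.18 ± 0.08 (adjusted p = 4.77e-07). Its fellow type V chains stood on the other side, with Col5a3 at 208 and 214 counts and 1.63 ± 0.16 (adjusted p = 6.44e-06) and Col5a2 at 87 and 87 counts and 0.57 ± 0.22 (adjusted p = 0.0401). Col11a1, a cartilage chain, had 175 and 148 counts against 81 and 72, at 1.09 ± 0.18 (adjusted p = 0.000252). Col27a1 had 84 and 107 counts, at 0.55 ± 0.20 (adjusted p = 0.0344). Col2a1 had 202 and 205 counts in wild type, at 0.13 ± 0.13 (adjusted p = 0.408), and Col11a2 had 68 and 53, at 0.26 ± 0.24 (adjusted p = 0.367).

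Of the 6 fibril-associated chains tested, 5 were called lower in wild type and 1 higher, beside 30.7% lower and 29.9% higher over all genes tested. Col16a1 had 61 and 55 counts against 153 and 113, at -1.19 ± 0.21 (adjusted p = 0.000523). Col9a2 and Col9a3, chains of the cartilage collagen IX, stood at -0.64 ± 0.10 (adjusted p = 0.000208) and -0.70 ± 0.18 (adjusted p = 0.00579). Reads of Col9a3 may include those of Tcfl5, which overlaps it on the other strand. Col22a1 stood at -0.70 ± 0.24 (adjusted p = 0.0246) and Col12a1 at -0.46 ± 0.16 (adjusted p = 0.026). Col20a1 was the chain on the higher side, with 120 and 124 counts against 77 and 54, at 0.91 ± 0.21 (adjusted p = 0.00271). It shares exons with BX649560.1 on its own strand.

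Among the remaining collagens, Col7a1 had 283 and 297 counts in wild type against 684 and 573, at -1.11 ± 0.10 (adjusted p = 3.67e-06). Col26a1 had 52 and 58 counts against 167 and 157, at -1.55 ± 0.18 (adjusted p = 1.81e-05). The short-chain network collagens divided, with Col8a1 at 62 and 73 counts against 192 and 153 (-1.34 ± 0.19, adjusted p = 8.43e-05) and Col8a2 at 40 and 40 against 16 and 28 (0.87 ± 0.32, adjusted p = 0.0332). Col6a3, a beaded-filament chain, had 40 and 54 counts against 16 and 7, at 2.03 ± 0.38 (adjusted p = 0.000754). The other beaded-filament chain of note, Col6a1, had 105 and 102 counts, at 0.09 ± 0.17 (adjusted p = 0.67). Col13a1, a transmembrane collagen, had 133 and 151 counts against 101 and 97, at 0.53 ± 0.16 (adjusted p = 0.0147), and Col17a1, which anchors skin cells, had 108 and 101 against 135 and 129, at -0.33 ± 0.16 (adjusted p = 0.0999).

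Some of these calls rested on 1 library. Without wild-type replicate 1, Lamc1, Lamb2, Col5a2, Col8a2 and Col12a1 were no longer called. Without wild-type replicate 2, Lamc1, Lamb2, Col5a2, Col8a2, Col13a1, Col22a1 and Col27a1 were not. Without untreated replicate 1, Col8a2, Col12a1, Col22a1 and Col27a1 were not, and without untreated replicate 2, Col5a2 and Col27a1 were not. The adjusted p of these 8 genes over all alternatives ran up to 0.289 (Col12a1) among the collagens and 0.186 (Lamb2) among the laminins.

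**Figure D5:**
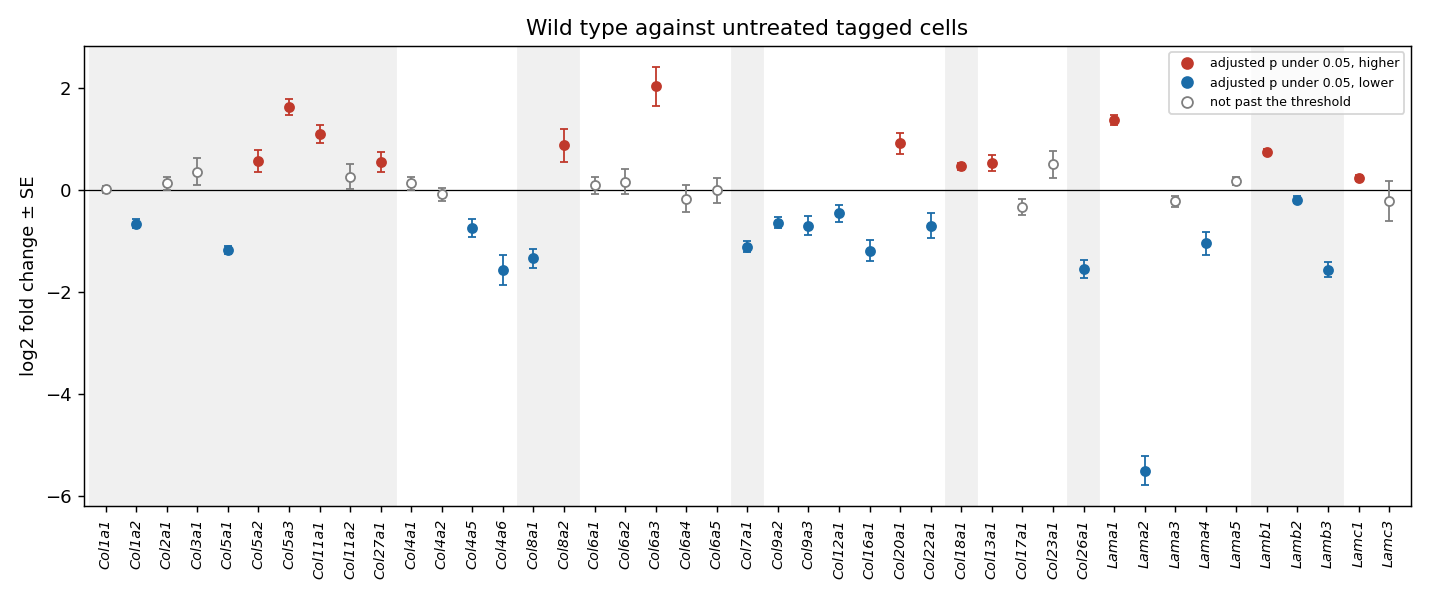
Log2 difference of wild-type over untreated tagged libraries (vertical axis) for 43 of the members tested (horizontal axis, shaded by class), with bars of 1 SE from edgeR on 2 against 2 libraries. Filled red points mark 12 members called higher in wild type and filled blue points 16 called lower, with Lama2 lowest at -5.50.

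Genes of the same pathway were called in both directions between wild type and tagged cells. The background over the 15778 genes tested was 29.9% called higher in wild type and 30.7% called lower. Of the 27 collagen synthesis genes, 6 were called higher and 14 lower. Serpinh1, the collagen chaperone of the endoplasmic reticulum, had 8623 and 6945 counts in untreated cells and 2731 and 2848 in wild type, at -1.47 ± 0.09 (adjusted p = 1.93e-07). Bmp1 stood at -1.50 ± 0.12 (adjusted p = 9.27e-07). P4ha1, the catalytic chain of a prolyl hydroxylase, stood on the other side at 1.54 ± 0.07 (adjusted p = 2.36e-08). Of 14 basement membrane partners tested, 3 were higher and 6 lower, among them Nid2, a linker of laminin to type IV collagen (0.58 ± 0.06), Tinagl1 (-1.33 ± 0.11) and Fbln2 (-0.76 ± 0.08). Of 15 receptors tested, 6 were higher and 7 lower. Itgb1, the integrin beta chain shared by most laminin and collagen receptors, stood at -1.08 ± 0.07, its partner Itga3 at -1.21 ± 0.12, and Sdc4, a heparan sulfate co-receptor, at 1.14 ± 0.08. Of 11 matrix-degrading enzymes and inhibitors tested, 2 were higher and 8 lower, among them Mmp9 (-2.19 ± 0.17), Timp1 (-0.84 ± 0.08) and Mmp11 (-0.71 ± 0.07).

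Markers of other cells moved in this comparison. Of the 11 endoderm markers, all tested, 8 were called higher in wild type and none lower, beside 29.9% higher and 30.7% lower over all genes tested. Hnf4a (-0.06 ± 0.35), Thbd (-0.35 ± 0.36) and Amn (0.31 ± 0.22) were not called. The summed level of the 11 markers was 112 and 118 CPM in wild type against 36.2 and 36.6 CPM in untreated cells. Cubn, an endocytic receptor of visceral endoderm, had 575 and 626 counts against 19 and 17. Dab2, another endoderm gene, had 323 and 342 counts against 85 and 82. Lama1, Lamb1, Lamc1, Col4a1 and Col4a2 are also products of early endoderm, and the part of such cells in the laminin values was not tested. The fibroblast list had a summed level of 28.6 and 33.5 CPM in wild type against 43.5 and 44.2 CPM. Of the 6 fibroblast markers tested, 1 was called higher and 3 lower. Postn was the one higher, with 43 and 70 counts against 34 and 20 (1.07 in log2, adjusted p = 0.0158). Among the lower ones Pdgfrb had 153 and 154 counts against 287 and 284, Thy1 had 121 and 125 against 171 and 210, and Twist2 had 13 and 22 against 48 and 55. Dcn, Lum and Fap had 0 or 1 count in each wild-type and untreated library. Of the 10 pluripotency genes, 7 were called higher in wild type and 1 lower, beside the same 29.9% and 30.7% of all genes tested.

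Set side by side, Col5a1, Col7a1 and Col1a2 were called higher after auxin and lower in wild type, both against the same untreated libraries, while Col2a1 and Col11a2 were called after auxin and not in wild type, a difference between the comparisons that was not tested. Lama1, Lamb1, Lamc1 and Col18a1 were among the members with a call in the wild-type comparison and none after auxin. Over all genes tested, 29.9% were called higher and 30.7% lower in the wild-type comparison, against 2.56% and 1.64% after auxin. Lama2 had 187 and 219 counts after auxin against 195 and 181 without it, so that the 2 groups of the tagged line overlapped.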

How the data were processed

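PolyA RNA-Seq libraries of mESCs (3 groups of 2) were analysed from the raw counts per gene that the authors deposited. Per the paper's methods and the submitters' processing notes, reads were aligned to mm10 with HISAT2 2.1.0 and assigned with Salmon and HTSeq. The strand setting and the GENCODE release are not given in the sources used here. Columns of the authors' own DESeq2 comparisons (normalized means, fold changes, p-values and adjusted p-values) were not used, and neither were 2 per-sample columns that match no sample of the series. The 2 tables were joined on gene ID, since spreadsheet dates had replaced some symbols.

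Each comparison was fitted on its own 4 libraries with edgeR 4.0.16 in R 4.3.3 (glmQLFit and glmQLFTest, filterByExpr with a minimum count of 10, TMM scaling, prior count of 0.125), and p-values were adjusted by Benjamini-Hochberg over all genes tested. The threshold for a call was an adjusted p under 0.05. The scripts were tested on simulated data. DESeq2 1.42.0, other scalings and filters, one fit of all 3 groups, the replicate block and each library left out in turn were the alternatives. Members with a mean of 100 counts in a group or with a call are named, except 1 that is not reported here and is not drawn but stays in the counts, and from each pathway list the 3 called genes with the smallest p in each comparison. Members and lists were chosen with earlier results of these data known. Exon lengths came from GENCODE vM21, in which all 55 genes were found, and promoter letters from RefSeq. The reads carry no molecular identifiers that the sources name, so counts are not independent molecules and the precision of a low count covers counting error only.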

Additional observations from a re-analysis of the deposited data

How the results depend on the processing

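With 2 libraries a group, the number of members called after auxin depended on the processing. It was 5 higher in the fit given above and stayed within 1.5 times of that with DESeq2 size factors, library totals and a filter of 10 counts in every library. It was 1 in DESeq2, 0 with no filter, 0 with mitochondrial mRNA scaling and 11 in one fit of all 3 groups. Leaving out each library in turn gave 0 to 19 higher and 0 to 2 lower, where the lone library of a group was assumed to vary like the other group. In wild type, 12 higher and 17 lower became 0 and 43 with mitochondrial mRNA scaling, and leaving out each library gave 7 to 13 higher and 15 to 19 lower. Of the 29 members called there, 13 were called under every alternative that gave a value. The cause of these shifts was not tested.

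Replicates share only a number, and the deviations of same-numbered libraries correlated at 0.0696 (auxin) and -0.0289 (wild type). With this number as a replicate block, 16 members were called higher after auxin and 0 lower, and 12 and 17 in wild type.

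Estimates near 0 changed sign. After auxin Lama2 stood at 0.00 in DESeq2 and, relative to the median of all genes, with mitochondrial mRNA scaling, and at -0.01 with no filter and in one fit of all 3 groups, and Col9a2 stood at 0.01 with library totals and 0.00 with at least 10 counts in every library. With each library left out in turn, the log2 fold change after auxin lay between -0.13 and 0.13 for Lama2, -0.12 and 0.11 for Col9a2, -0.03 and 0.26 for Lama4, -0.19 and 0.01 for Lama3, -0.40 and 0.13 for Col9a3, -0.04 and 0.15 for Col11a1, -0.29 and 0.08 for Lama1, -0.10 and 0.69 for Col8a2, -0.47 and 0.10 for Col13a1 and -0.22 and 0.31 for Col22a1. In wild type Col1a1 stood at -0.05 with library totals, at -0.01 with at least 10 counts in every library and between -0.02 and 0.06 with a library left out, where Col4a1 lay between -0.12 and 0.43 and Col4a2 between -0.35 and 0.23. The median over the members after auxin lay between 0.17 and 0.36 with a library left out. Below 100 counts, counting error alone is large beside these changes.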
